A study of Mus musculus with 13 samples.

Results

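Desmosomal cadherins are the transmembrane proteins of the desmosome, the junction that couples the keratin filaments of neighbouring epithelial cells. They fall into desmogleins and desmocollins, whose outer parts bind across the gap between cells and whose tails hold plakoglobin, plakophilins and desmoplakin. In stratified squamous epithelium the family is layered, with Dsg3 and Dsc3 best known from the lower layers and Dsg1 and Dsc1 from the upper ones, while Dsg2 and Dsc2 are also the usual pair of simple epithelia and heart muscle. p120-catenin, the gene deleted here, binds classical cadherins such as E-cadherin and is not a standard part of the desmosome.

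The family was taken as 7 genes by symbol, Dsg1a, Dsg1b, Dsg2, Dsg3, Dsc1, Dsc2 and Dsc3, of 19934 genes that have a probe set of their own in the array annotation. Of the 7, 5 have such a probe set (1 each), and all 5 passed the filter on low values, which 15875 genes passed. Their log2 level was above 5 on all 13 arrays. Dsg1a is listed only on a probe set that also names Dsg1b and Dsg1c, near-identical copies of the mouse desmoglein-1 gene. That shared probe set is described beside Dsg1b and cannot be assigned to 1 copy. Dsc1 was not analysed here.

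The study measured epithelium peeled with dispase from mouse esophagus and forestomach, both lined by squamous epithelium. All animals, controls included, carried L2-Cre, a Cre transgene whose promoter is known to be active in the squamous epithelium of the upper digestive tract, on a mixed C57Bl/6 and 129 strain background; ages were not used here. Control animals were p120 +/+ (214, 216 and 217; 3 esophagus and 3 forestomach arrays, paired by animal), and the others p120 flox/flox. The flox/flox arrays were 4 esophagus samples (animals 193, 307, 313 and 335) and 3 forestomach masses (412, 426 and 510). Because each flox/flox forestomach sample was a mass, genotype and mass cannot be told apart in that tissue.

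Squamous keratins were high throughout, at log2 12.32 to 13.01 for Krt5, 11.75 to 13.51 for Krt14 and 13.38 to 14.13 for Krt13 over the 13 arrays. Ctnnd1, which encodes p120-catenin, differed by -0.29 in flox/flox esophagus (SE 0.11, limma adjusted p = 0.637) and fell by 0.56 in the masses (SE 0.12, adjusted p = 0.0145). Every flox/flox esophagus array (9.95 to 10.13) lay below every control (10.21 to 10.50), as was so for 6.1% of all genes. Esophagus arrays 214, 307 and 335 stood apart in muscle and stromal genes: the summed intensity of 14 skeletal muscle genes was 6551, 5109 and 17340 there, and between 747 and 1118 on the other 10 arrays. Their fibroblast means were log2 10.92, 9.43 and 9.98, against 6.07 to 6.38 on the other esophagus arrays. Smooth muscle means were 9.71, 9.56 and 8.35 against 5.92 to 6.29, and endothelial means 7.16, 6.75 and 7.39 against 5.17 to 5.47. Mass 426 stood apart in gastric genes: the summed intensity of 17 simple-epithelium and glandular genes was 64004, against 2651 and 1481 in masses 412 and 510 and 842 to 1281 on the arrays of the other 3 groups. In mass 426 the gastric genes Gkn1, Tff1 and Atp4a, a gastrokine, a trefoil factor and the proton pump, stood at log2 13.08, 13.39 and 11.51. The mean of 7 fibroblast genes was log2 7.01 to 9.27 in the masses and 6.27 to 7.59 in control forestomach, and that of 8 smooth muscle genes 6.88 to 10.57 and 6.12 to 7.97. Both ranges overlapped. The mean of 8 endothelial genes was 6.36 to 7.50 in the masses and 5.48 to 6.17 in control forestomach, and that of 10 leukocyte genes 6.99 to 7.56 and 6.27 to 6.68, higher in every mass without overlap. Their part in the results on the masses was not tested.

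Dsc2 and Dsg3 were the members that passed the test in a genotype comparison. Comparing masses with control forestomach, 2 of the 5 tested members rose and 0 fell, where 2.31% of all genes rose, 8.4% fell and 10.7% were called either way. The same 2 members were the ones under an unadjusted p of 0.05 (24.8% of all genes) and without overlap between the groups (27.9%; higher 10.3%, lower 17.5%).

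In flox/flox against control esophagus, limma called 0 of 5, where 0.0126% of all genes were called. Dsg3 alone had an unadjusted p under 0.05 (6.98% of all genes), and Dsg3 alone was without overlap (10.3% of all genes; higher 4.18%, lower 6.1%). The genotype change differed between the tissues for 1 of 5, Dsc2, with the larger change in forestomach, against 0.139% of all genes (0.0819% larger in forestomach, 0.0567% smaller); at an unadjusted p under 0.05 it was also 1, against 10.5%.

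Control forestomach was lower than control esophagus for 1 of 5, Dsc2, and higher for 0, where 3.16% of all genes were lower, 3.51% higher and 6.67% either. Dsg3, Dsc2 and Dsc3 had an unadjusted p under 0.05 (21.6% of all genes), and these 3 lay lower in forestomach without overlap (19.3% of all genes; 37.3% either way). The median difference of the 5 was 0.37 in the masses, 0.069 in flox/flox esophagus and -0.45 between the control tissues, beside medians over all genes of 0.0062, 0.0065 and 0.022. In bulk tissue such as this, fewer cells of a type and less RNA per cell cannot be told apart.

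**Figure D1:**
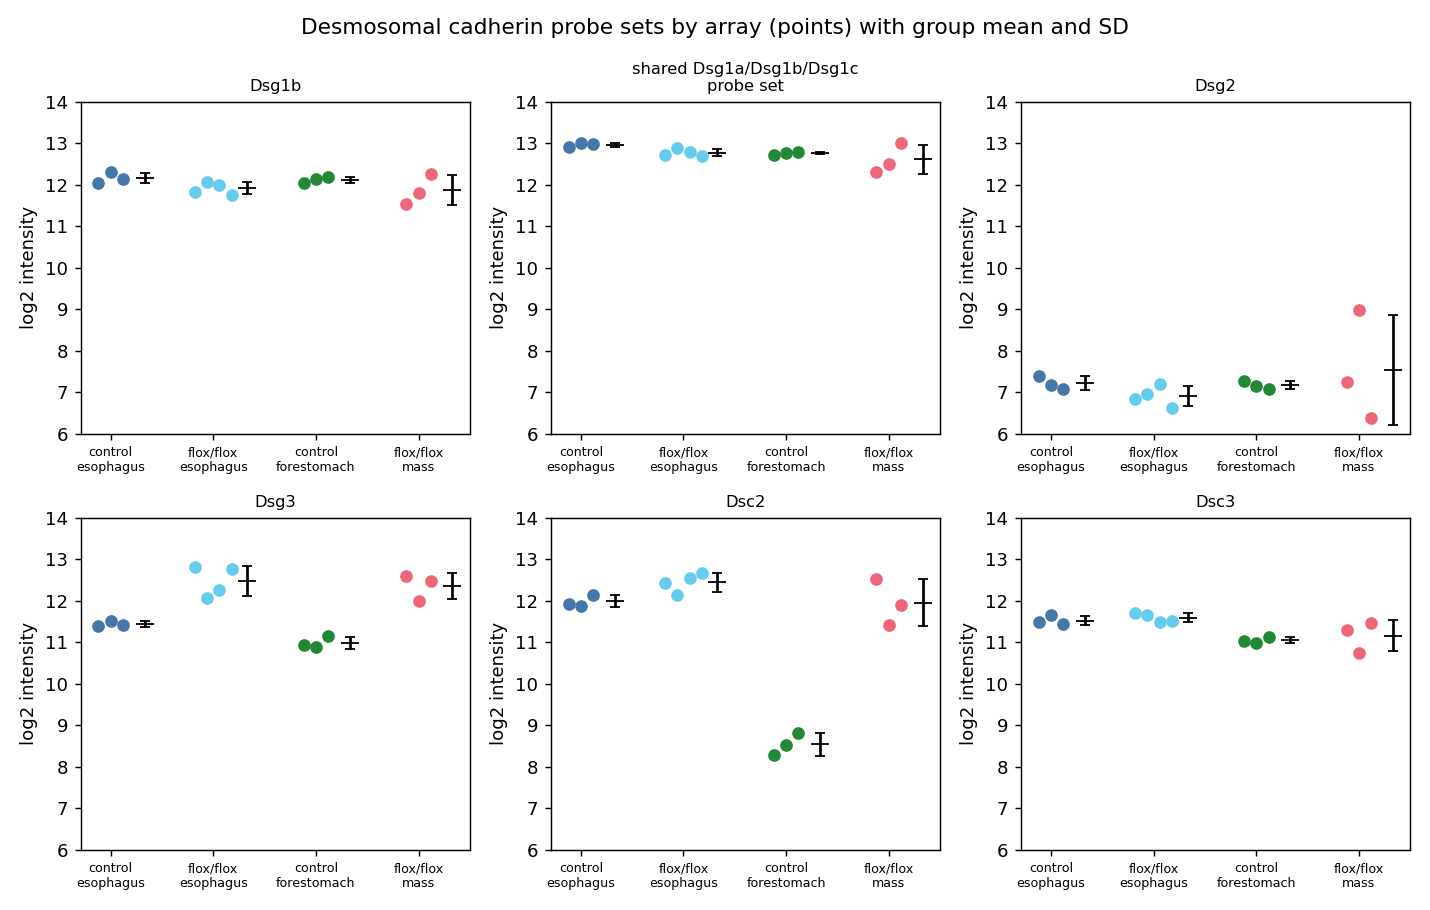
Each panel plots the log2 intensity (vertical axis) of a desmosomal cadherin probe set on every array, in the 4 groups (horizontal axis), with the group mean and SD as a black bar beside the points. Dsc2 is low only in control forestomach, Dsg3 is higher in both flox/flox groups than in the controls, and Dsg2 in mass 426 stands at 8.99; heights are not comparable between panels, because probe sets differ.

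Dsc2 encodes desmocollin-2, the most widely expressed desmocollin. Its log2 level was 11.93, 11.88 and 12.15 in control esophagus of animals 216, 217 and 214, but 8.28, 8.53 and 8.83 in control forestomach of animals 214, 216 and 217. The masses stood at 12.54 (412), 11.41 (426) and 11.90 (510). All 3 control forestomachs lay far below every other array, and among the masses 412 was above the control esophagus range, 510 within it and 426 below it.

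Between the control tissues, Dsc2 was 10.9-fold lower in forestomach (log2 -3.44, SE 0.25, n = 3 and 3, limma adjusted p = 9.54e-06). In the masses it rose 10.6-fold over control forestomach (3.40, SE 0.25, n = 3 and 3, adjusted p = 6.78e-05). By unadjusted p this rise ranked the second of all genes tested. These comparisons share the control forestomach arrays, so they are not independent of each other. The mean in the masses, 11.95 ± 0.57 (SD, n = 3), differed from the 11.99 ± 0.14 (SD, n = 3) of control esophagus by 0.040, and the arrays overlapped. Without mass 426, the array with gastric RNA, the rise was 3.67 (SE 0.22, adjusted p = 2.16e-05), as large as with it.

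In flox/flox esophagus Dsc2 read 12.44, 12.14, 12.54 and 12.67 in animals 193, 307, 313 and 335. Animal 307 was just inside the control range and the others were above it. The difference from control esophagus was 0.46 (SE 0.23, 95% interval -0.045 to 0.96, adjusted p = 0.758) and did not pass. The genotype change of Dsc2 was larger in forestomach than in esophagus by 2.95 (SE 0.34, adjusted p = 0.00392). Without the esophagus arrays 214, 307 and 335 together, this difference was 2.82 (SE 0.40) and missed the threshold (adjusted p = 0.0763).

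Dsg3 encodes desmoglein-3, the adhesion molecule targeted by autoantibodies in pemphigus vulgaris. In control forestomach it stood at 10.94, 10.88 and 11.16 in animals 214, 216 and 217, and in the masses at 12.60, 12.00 and 12.49 in 412, 426 and 510. Every mass lay above every control. Dsg3 rose 2.59-fold (log2 1.37, SE 0.21, n = 3 and 3, limma adjusted p = 0.00258). Without mass 426 the rise was 1.55 (SE 0.20, adjusted p = 0.00155).

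In the esophagus the Dsg3 difference had the same sign and did not pass the test. Controls 216, 217 and 214 read 11.39, 11.52 and 11.42, and flox/flox animals 193, 307, 313 and 335 read 12.81, 12.06, 12.27 and 12.76. The groups did not overlap. The difference of 1.03 (2.05-fold, SE 0.19, 95% interval 0.61 to 1.45, n = 3 and 4) had the eighth smallest unadjusted p of all genes (0.000183), and an adjusted p of 0.321. Under the 26 alternatives run, the adjusted p lay between 0.0536 and 0.921. The genotype changes of the 2 tissues differed by 0.34 (SE 0.28, 95% interval -0.28 to 0.95, adjusted p = 0.781).

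Stress keratins, the wound-type keratins of squamous epithelium, ran alongside Dsg3 in the esophagus arrays. The summed intensity of the 4 stress keratin genes was 12316, 1600, 6834 and 10901 in flox/flox esophagus of 193, 307, 313 and 335, and 518 to 1009 in control esophagus, with all 4 genes above log2 5 on each of these arrays. Among the 4 flox/flox animals, 193 and 335 were highest in Dsg3 and in this summed intensity, and 307 was lowest in both. By the mean log2 level of the 4 genes, 335 (9.64) and 313 (9.61) were nearly level. Krt16 was higher in 313 (7.55) than in 335 (6.79). Leukocyte genes stood highest in animals 193 and 335: the mean of 10 genes was log2 7.98 in 193 and 7.84 in 335, and 5.66 to 7.24 on the other esophagus arrays. Across the tissues the stress keratins and Dsg3 parted. In control forestomach 3 of the 4 keratin genes were above control esophagus (median 0.81, 0 called by limma), whereas Dsg3 was lower (-0.45). The summed keratin intensity was 9085 to 32443 in the masses and 1600 to 12316 in flox/flox esophagus, where Dsg3 averaged 12.36 and 12.48. The part of the stress keratin and leukocyte genes in the Dsg3 difference was not tested.

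**Figure D2:**
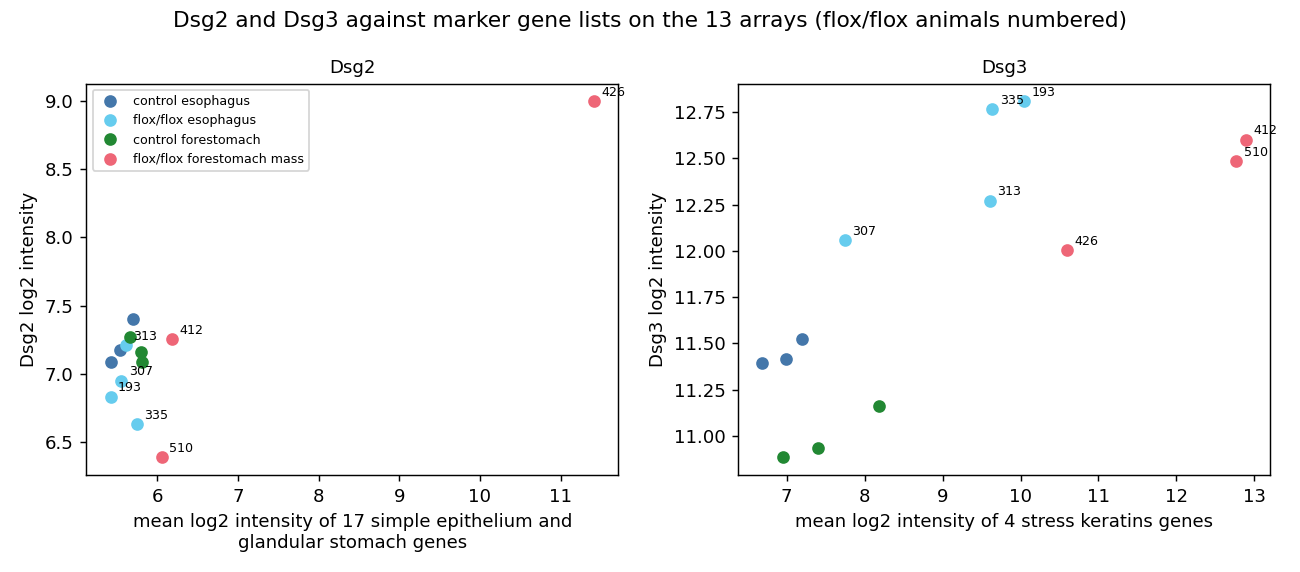
The left panel plots Dsg2 against the mean of 17 simple-epithelium and glandular stomach genes, and the right panel Dsg3 against the mean of 4 stress keratin genes, as log2 intensity on each of the 13 arrays, coloured by group. Mass 426 lies alone at the upper right for Dsg2 (mean of the list 11.42), and for Dsg3 the flox/flox arrays lie above and to the right of the controls, except that animal 307 (7.74) is left of a control forestomach array (8.19).

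Dsg2 encodes desmoglein-2, the desmoglein of simple epithelia and the heart. It stood at 7.40, 7.18 and 7.08 in control esophagus of 216, 217 and 214, and 7.27, 7.16 and 7.09 in control forestomach of 214, 216 and 217. In flox/flox esophagus it was 6.83, 6.95, 7.21 and 6.63 in 193, 307, 313 and 335. The masses gave 7.25 (412), 8.99 (426) and 6.39 (510), the latter 2 being the highest and the lowest array of all 13. The groups overlapped in every comparison. Outside mass 426 the Dsg2 level was low, at 83.8 to 169 on the linear scale. The medians of the arrays over all probe sets were 65.3 to 72.4 on that scale.

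No comparison of Dsg2 passed the test. The difference was 0.37 in the masses (SE 0.47, 95% interval -0.65 to 1.39, limma adjusted p = 0.690), -0.31 in flox/flox esophagus (SE 0.44, adjusted p = 0.994) and -0.049 between the control tissues (SE 0.47, adjusted p = 0.963). Without mass 426 the direction in the masses turned to -0.35 (SE 0.23, adjusted p = 0.389). Mass 426 is the array with gastric gene expression, at 17 of the list's 17 genes above log2 5, against 13 and 15 in masses 412 and 510. In the 3 other groups 11 to 14 of the 17 passed that level, and Krt20, Gkn2 and Pgc did not pass it on any array of those groups. Passing log2 5 does not by itself show that a gastric gene is expressed. Gkn1 passed it at only 5.33 to 5.90 in those groups. In masses 412 and 510 Gkn1 stood at 5.65 and 5.99, against 13.08 in mass 426. The part of gastric cells in the Dsg2 level of mass 426 was not tested.

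Neither desmoglein-1 probe set passed the test in any comparison. Dsg1b encodes 1 copy of desmoglein-1, the desmoglein of the upper layers. It stood at 12.05, 12.30 and 12.14 in control esophagus of 216, 217 and 214, and 12.04, 12.14 and 12.19 in control forestomach of 214, 216 and 217. Flox/flox esophagus gave 11.83, 12.08, 11.99 and 11.76 in 193, 307, 313 and 335, and the masses 11.54, 11.80 and 12.27 in 412, 426 and 510. The flox/flox arrays lay below the controls of their tissue apart from animal 307 and mass 510.

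The difference of Dsg1b was -0.25 in both flox/flox comparisons, with an SE of 0.15 in esophagus (limma adjusted p = 0.840) and 0.16 in the masses (adjusted p = 0.384). The 95% intervals ran from -0.58 to 0.086 and from -0.60 to 0.10. Without mass 510 the difference in the masses was -0.45 (SE 0.13) and passed (adjusted p = 0.0393). Between the control tissues it was -0.0405 (SE 0.16, adjusted p = 0.911).

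The probe set shared by the desmoglein-1 copies averaged 12.96 ± 0.044 (SD, n = 3) in control esophagus, where the lowest array was 12.91. It ranged from 12.69 to 12.89 among the flox/flox esophagus arrays, from 12.73 to 12.78 among control forestomachs, and from 12.32 to 13.01 among the masses. Mass 510 was the highest and mass 412 the lowest of all 13 arrays, as for Dsg1b among the masses. The flox/flox esophagus arrays all lay below the controls, but the difference of -0.19 (SE 0.14) did not pass among the 25851 probe sets tested together (limma adjusted p = 0.970), nor did the -0.14 in the masses (SE 0.15, adjusted p = 0.640) or the -0.21 between control tissues (SE 0.15, adjusted p = 0.510). The probe set of Dsg1c alone stayed between 3.45 and 4.12, under the filter on all arrays. The probe set of Dsg4, the hair desmoglein, was also below 5 on all 13, at 4.32 to 4.90.

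Dsc3 encodes desmocollin-3, the desmocollin of the lower layers. Control esophagus stood at 11.49, 11.66 and 11.43 in animals 216, 217 and 214, and control forestomach at 11.02, 10.99 and 11.13 in animals 214, 216 and 217, without overlap. Flox/flox esophagus gave 11.72, 11.65, 11.50 and 11.51 in 193, 307, 313 and 335, and the masses 11.30, 10.74 and 11.45 in 412, 426 and 510. Each flox/flox group overlapped its control.

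The difference of Dsc3 was 0.069 in flox/flox esophagus (SE 0.15, 95% interval -0.25 to 0.39, limma adjusted p = 0.997) and 0.11 in the masses (SE 0.16, 95% interval -0.23 to 0.46, adjusted p = 0.722). Between the control tissues it was -0.48 (SE 0.16, adjusted p = 0.101). With the animal as a random block, which pairs the tissues of each control, this tissue difference passed (SE 0.12, adjusted p = 0.0207). With the animal as a fixed block in the control arrays alone, Dsc3 (SE 0.077, adjusted p = 0.0233) and Dsg3 (-0.45, SE 0.079, adjusted p = 0.0277) were lower in forestomach. The control arrays alone without a block called both as well, with an adjusted p of 0.0188 for Dsc3 (SE 0.092) and 0.0294 for Dsg3 (SE 0.0996). Each of these settings also called more of all genes than the 6.67% of the main fit. The shares were 16.8% with the random block, 14.8% with the fixed block and 14.3% with the control arrays alone. In the fit of all 13 arrays Dsg3 did not pass, either without a block (SE 0.21, adjusted p = 0.231) or with the random block (SE 0.16, adjusted p = 0.0737).

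Within each gene, the order of the 4 group means can be given with the neighbours that overlap. For Dsc2 it ran from control forestomach (8.54) to masses (11.95), control esophagus (11.99) and flox/flox esophagus (12.45), and only the first step was without overlap. For Dsg3 the order was control forestomach (10.99), control esophagus (11.44), masses (12.36) and flox/flox esophagus (12.48), with overlap only between the last 2. For Dsc3 it was control forestomach (11.05), masses (11.16), control esophagus (11.53) and flox/flox esophagus (11.59), and all neighbours overlapped. For Dsg1b and Dsg2 all neighbours overlapped too, and no step exceeded 0.33.

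**Figure D3:**
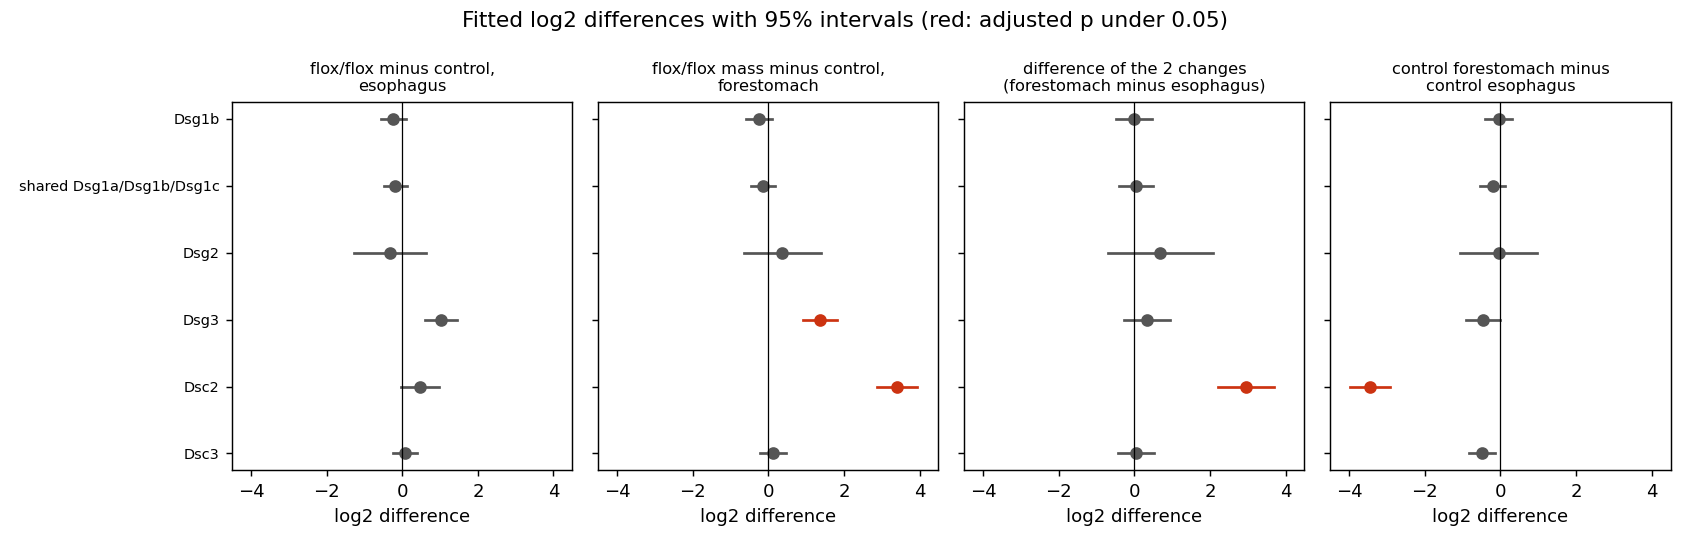
The 4 panels show the fitted log2 difference of each probe set (points) with its 95% interval (lines) in the 4 comparisons; red marks an adjusted p under 0.05. Dsc2 is 3.40 above 0 in the masses and 3.44 below 0 in control forestomach, Dsg3 passes only in the masses, and the intervals of Dsg1b and Dsc3 in the genotype comparisons include 0.

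As a description over the 13 arrays, which share groups and animals, Dsc2 and Dsg3 had a Pearson r of 0.79, Dsc2 and Dsc3 0.66, and Dsg2 and Dsc3 -0.67. Dsg1b and the shared desmoglein-1 probe set, which read related transcripts, had an r of 0.88. After the group means were taken out, r was 0.68 for Dsc2 with Dsg3 and -0.87 for Dsg2 with Dsc3. Mass 426 carried the highest Dsg2 and the lowest Dsc3 of all arrays.

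The genes lie in a single cluster on mouse chromosome 18. In the RefSeq gene table (GRCm38.p6) the order is Dsc3, Dsc2, Dsc1, Dsg1c, Dsg1a, Dsg1b, Dsg4, Dsg3 and Dsg2, so Dsc2 and Dsg3, which rose in the masses, are not adjacent. Of the 3 nearest protein-coding genes on each side, only B4galt6 and Trappc8, on the side of Dsg2, passed the level filter. B4galt6, a glycolipid galactosyltransferase, differed by 1.12 in the masses (SE 0.55, limma adjusted p = 0.236) and Trappc8, a vesicle-tethering subunit, by -0.21 (SE 0.083, adjusted p = 0.133). Ttr, which lies next to Dsg2, and Cdh2, next to Dsc3, were under the filter.

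The cytoplasmic partners come next. Of 9 plaque genes tested, 0 rose and 2 fell in the masses, 0 passed in flox/flox esophagus, and 1 was lower in control forestomach than in control esophagus. Over all genes, 2.31% rose and 8.4% fell in the masses, 0.0126% passed in flox/flox esophagus, and 3.16% were lower in control forestomach. The counts of this and the following lists were not tested against such shares. Envoplakin (Evpl) and periplakin (Ppl), which tie desmosomes to the cornified envelope, both fell in the masses. The fall of Evpl was -0.98 (SE 0.18, limma adjusted p = 0.00633) and that of Ppl -0.57 (SE 0.12, adjusted p = 0.0148). Plakophilin-1 (Pkp1), the plakophilin of upper squamous layers, was lower in control forestomach by -0.64 (SE 0.12, adjusted p = 0.00834) and differed by 0.32 in the masses (SE 0.12, adjusted p = 0.126). Desmoplakin (Dsp) differed by 0.23 (SE 0.094, adjusted p = 0.159) and plakoglobin (Jup) by -0.034 (SE 0.097, adjusted p = 0.879) in the masses.

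Plakophilin-2 (Pkp2), the usual partner of Dsg2 and Dsc2 in simple epithelia and heart, was 5.51, 7.66 and 5.28 in masses 412, 426 and 510 and no higher than 5.13 on the other arrays. Like Dsg2, it was highest in mass 426. Its difference in the masses was 1.39 (SE 0.46, adjusted p = 0.0777). The median over the plaque list was 0.050 in the masses, beside the 0.0062 of all genes.

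**Figure D4:**
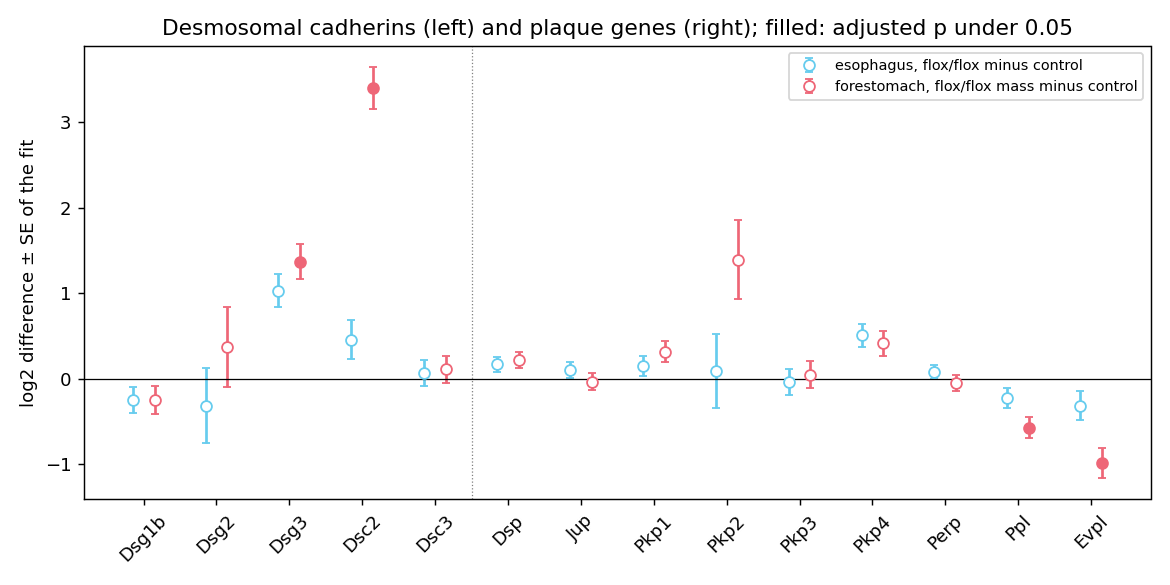
The plot gives the log2 difference with the SE of the fit for 5 desmosomal cadherins (left of the dotted line) and 9 plaque genes (right), for flox/flox esophagus (blue) and forestomach masses (red) against their controls; filled points have an adjusted p under 0.05. Dsc2 and Dsg3 are the filled points above 0, Ppl and Evpl the filled points below it, and no esophagus point is filled.

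E-cadherin and P-cadherin, the classical cadherins that p120-catenin binds, did not pass. Cdh1 differed by 0.32 in the masses (SE 0.12, limma adjusted p = 0.106) and 0.17 in flox/flox esophagus (SE 0.11, adjusted p = 0.856). For Cdh3 the masses differed from control forestomach by 0.80 (SE 0.38, adjusted p = 0.221), while the esophagus difference was 0.997 (SE 0.36, adjusted p = 0.587). The esophagus groups did not overlap for either gene, as was so for 10.3% of all genes. Cdh1 read 10.95 to 10.98 in controls and 11.10 to 11.19 in flox/flox animals, and Cdh3 7.45 to 7.97 and 8.15 to 9.22. Both genes overlapped between masses and control forestomach. Of 11 classical junction genes tested, 1 rose and 2 fell in the masses, where 2.31% of all genes rose and 8.4% fell. Beta-catenin (Ctnnb1) rose by 0.44 (SE 0.10, adjusted p = 0.0196), Ctnnd1 fell as given above, and afadin (Afdn), which links nectins to actin, fell by 0.36 (SE 0.096, adjusted p = 0.0335).

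A further list held proteases known to cut desmosomal proteins or cadherins, with their inhibitors. Of its 20 genes tested, 5 were higher and 1 lower in control forestomach, and in the masses 3 rose and 3 fell. The shares of all genes were 3.51% higher and 3.16% lower in control forestomach, and 2.31% up and 8.4% down in the masses. The kallikrein Klk14 was lower in control forestomach (-3.28, 9.70-fold, SE 0.32, limma adjusted p = 0.000110) and rose in the masses (2.51, 5.68-fold, SE 0.32, adjusted p = 0.00135). Klk5, which activates other kallikreins, was higher in control forestomach by 3.97 (15.6-fold, SE 0.50, adjusted p = 0.000611). The cathepsin gene Ctsl was higher there by 1.82 (SE 0.20, adjusted p = 0.000265) and fell in the masses by 0.99 (SE 0.20, adjusted p = 0.00975). Adam10, a membrane protease that sheds cadherins, rose in the masses by 0.58 (SE 0.13, adjusted p = 0.0141). In flox/flox esophagus limma called 0 of the 20, and 0.0126% of all genes.

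Among squamous transcription factors, 1 of 21 rose and 4 fell in the masses, where 2.31% of all genes rose and 8.4% fell. Grhl1, a grainyhead-like factor known to bind the Dsg1a promoter in mouse, fell by 0.49 (SE 0.091, limma adjusted p = 0.00661), Hes1, a Notch target, fell by 0.69 (SE 0.13, adjusted p = 0.00670), and Elf3, an epithelial ETS factor, rose by 1.63 (SE 0.40, adjusted p = 0.0231). Pax9, a factor of foregut epithelium, was 21.8-fold lower in control forestomach than in control esophagus (-4.45, SE 0.31, adjusted p = 8.10e-06).

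Markers of the epithelial layers were counted in the same way, beside all genes, of which 2.31% rose and 8.4% fell in the masses. In flox/flox esophagus 0.0126% of all genes passed, and in control forestomach 3.51% were higher and 3.16% lower. Of 10 basal genes, 0 passed in the masses (median 0.15) and 4 were lower in control forestomach (median -0.62), led by Krt15 (-3.19, SE 0.62, limma adjusted p = 0.00895). Of 15 suprabasal genes, 0 rose and 3 fell in the masses (median -0.60). In control forestomach 3 were higher and 0 lower than in control esophagus, and 9 of the 15 differences were above 0 (median 0.075). The list therefore did not shift as a whole between the control tissues. The keratin genes Krt1 and Krt10 stood 171-fold and 74.4-fold above control esophagus (7.42, SE 0.35, limma adjusted p = 4.35e-07, and 6.22, SE 0.51, adjusted p = 2.98e-05). Krt1 was low in control esophagus, at log2 6.08 to 6.70. All 4 stress keratin genes rose in the masses (median 4.65) and 0 passed in flox/flox esophagus (median 2.23). Of 9 proliferation genes 0 passed in either genotype comparison, with medians of 0.58 in the masses and 0.34 in esophagus.

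The genes whose level over the 13 arrays was most like that of each member were ranked by Pearson r among 4588 other genes, as a description. For Dsc2 they were Tmprss11b (r = 0.98), an airway-type serine protease, the kallikrein Klk14 (0.97) and the endotoxin receptor Tlr4 (0.97). Tlr4 averaged 8.01 in control esophagus, 8.02 in flox/flox esophagus, 6.01 in control forestomach and 8.18 in the masses, the same low point as Dsc2. Klk14 averaged 12.04, 12.27, 8.76 and 11.26 in those groups.

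For Dsg3 the most alike were Stom (r = 0.98), which encodes the membrane protein stomatin, Krt6a (0.97) and the serine protease gene Tmprss11g (0.96). Stom averaged 8.91 in control esophagus, 10.63 in flox/flox esophagus, 7.97 in control forestomach and 10.64 in the masses. Krt6a averaged 6.30, 10.11, 5.35 and 10.86. For Dsg2 they were Fermt1 (0.94), Lasp1 (0.93) and Bace2 (0.91), for Dsc3 Rassf1 (0.95), Ssx2ip (0.91) and Wfdc5 (0.90), and for Dsg1b Anxa9 (0.93), Aadacl2 (0.92) and Aadacl2fm1 (0.90). Fermt1, which encodes the integrin activator kindlin-1, had its highest value, 8.88, in mass 426, as Dsg2 did.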

How the data were processed

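Total RNA of dispase-peeled epithelium was hybridised to Affymetrix mouse arrays (13 arrays). The authors' deposited values are linear intensity values made with GCRMA, per the submitters' processing notes; its version is not given in the sources used here. The number of arrays limits the precision. Gene names come from the platform annotation (21633 of 34729 probe sets name 1 gene). Values were put on the log2 scale (floor of 1, which no value was under). Each gene was represented by its probe set with the highest mean and kept if above log2 5 on at least 3 arrays.

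A mean for each of the 4 groups was fitted over all arrays and genes with limma 3.58.1 in R 4.3.3 (lmFit, eBayes; 9 residual degrees of freedom); p-values were adjusted by Benjamini-Hochberg over 15875 genes, with a call under 0.05. The shared desmoglein-1 probe set was tested in a fit of all 25851 probe sets above the filter. The fit was also run on simulated data, drawn independently for each array with changes only in the masses. That run does not cover paired animals or mixed tissue. The pairing of the control tissues comes from the labels. After group means were taken out, control tissues of the same animal had an r over genes of 0.40, 0.31 and 0.40. Between different animals r ran from -0.43 to 0.13. Both arrays of animal 214 had the highest fibroblast mean of their group (log2 10.92 and 7.59). The part of such tissue content in these r values was not tested.

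Named genes were the members, 10 sentinel genes, up to 3 called genes of each list by the smallest adjusted p, and the 3 most alike genes of each member (SD of at least 0.3); neighbours were taken by gene order, and Pkp2 and the gastric markers were named after their values were seen. The members and lists were chosen with earlier results of these data known. Limma called 0 genes of the smooth muscle, fibroblast, endothelial, leukocyte and skeletal muscle lists in either genotype comparison. Over all genes, 10.7% were called in the masses and 0.0126% in esophagus. The list medians in the masses were 1.98, 1.87, 1.37, 1.04 and 0.095 in that order, beside 0.0062 over all genes. In flox/flox esophagus they were 0.11, 0.085, 0.19, 1.09 and 0.63, beside 0.0065. A count of 0 therefore does not show equal tissue content.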

Additional observations from a re-analysis of the deposited data

Results flagged for a closer look

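The genotype change of Dsc2 differed between the tissues by a direct test of the difference. It was larger in forestomach than in esophagus by 2.95 on the log2 scale (SE 0.34, limma adjusted p = 0.00392), with the levels of all 3 masses above all 3 control forestomachs and 3 of 4 flox/flox esophagus arrays above the controls. The forestomach side compares masses with epithelium of controls, so genotype and mass cannot be told apart.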

How the results depend on the processing

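The counts of members called in the genotype comparisons kept to 0 in esophagus and 2 to 3 in the masses under all 26 alternatives. The count for the difference of the changes, 1, was 0 without esophagus arrays 214, 307 and 335. The count between control tissues, 1, was 2 with array weights and with the replicate block as a random effect. It was 3 with the animal as a fixed block or with only the control arrays, and 1 to 2 on leaving out each array. Array weights and leaving out mass 426 added Dsc3. Of all genes, array weights called 23.9%, the random block 16.8%, the fixed block 14.8% and the control arrays alone 14.3%. The fit without mass 426 called 8.67%, and the main fit 6.67%. The block changed no other call. Signs of differences near 0 turned for Dsg1b between control tissues under quantile normalization (0.046), for Dsc3 in the difference of the changes under array weights (-0.016), and for Dsg1b in that difference without those 3 esophagus arrays (0.0125) and, added after seeing the data, also without mass 426 (0.048). With that added alternative Dsg2 was -0.35 in the masses and -0.082 in the difference. Leaving out each array gave ranges across 0 in the masses for Dsg2 (-0.35 to 0.95) and Dsc3 (-0.031 to 0.33), in the difference for Dsg1b (-0.20 to 0.16), Dsg2 (-0.035 to 1.27) and Dsc3 (-0.10 to 0.26), and between control tissues for Dsg1b (-0.098 to 0.029) and Dsg2 (-0.12 to 0.042). The cause was not tested. With 3 or 4 arrays a group, a single array can decide a call, as for Dsg1b in the masses, which passed only without mass 510 (-0.45).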
